A study of Mus musculus with 816 samples.

Results

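The 8 genes described here are the IFIT and OAS antiviral genes Ifit1, Ifit2, Ifit3, Oas1a, Oas2, Oas3, Oasl1 and Oasl2. They were chosen by name, and all 8 were listed among the 45581 genes measured in 784 microglial cultures and the 29858 genes measured in microglia from 32 mice. The cultured cells were purchased primary microglia of newborn mice, and their RNA was sequenced after exposure to a panel of stimuli for 4, 24 or 72 h. Values are in CPM, the reads of a gene per 1000000 mapped reads.

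IFIT and OAS genes are interferon-stimulated genes. Type I interferon (IFNa and IFNb) signals through its receptor to a complex of transcription factors that includes Stat2 and Irf9 and binds the interferon-stimulated response element (ISRE), whereas type II interferon (IFNg) acts mainly on another element, the gamma-activated sequence (GAS). IFIT proteins bind viral RNA and block its translation. OAS enzymes sense double-stranded RNA and make short oligoadenylates that set off the breakdown of RNA. In microglia, sensors of bacterial lipopolysaccharide and of double-stranded RNA lead to interferon production, so the same genes can respond to the stimulus and to the interferon it elicits.

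In the cultures, each single agent was compared with untreated wells of the same duration, labelled None: 40 cultures at 24 h and 25 at 72 h. IFNa at 0.0008 ug/ul was given to 8 cultures for 24 h and to 7 for 72 h, IFNb at 0.0001 ug/ul to 10 and 4, and IFNg at 0.0001 ug/ul to 9 and 6. PolyIC, a synthetic double-stranded RNA labelled IC, was given at 0.2 ug/ul to 8 and 6 cultures. Lipopolysaccharide (LPS), a bacterial cell wall component that activates Tlr4, was given as LPS_hi (0.0001 ug/ul; 7 cultures at 4 h, 18 at 24 h and 13 at 72 h) and as LPS_lo (0.00001 ug/ul; 7 cultures at 24 h and 11 at 72 h). P3C at 0.001 ug/ul, a synthetic lipopeptide sensed by Tlr2, was given to 6 cultures at each of 24 and 72 h. The labels do not say whether wells of one condition came from separate animals, so p-values over cultures measure only the spread between these wells. The mice were C57BL/6. In the first experiment, female mice 2 months old received LPS at 2 mg/kg (4 mice) or PBS (4 mice) into the peritoneum 4 h before microglia were isolated. In the second, males of 2 months (11 mice) and 22 months (13 mice), labelled naive, were compared. The column headings of 8 of these males and of the 8 females add the word vehicle, which the labels do not explain. Microglia were taken from perfused whole brain with CD11b beads, which also bind other myeloid cells.

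Sequencing depth was 1.00 to 38.2 M (1 M is 1000000) mapped reads per culture (median 4.67) and 2.36 to 7.78 M per mouse (median 4.08). The summed level of 8 microglial markers was 817 to 14535 CPM in cultures (median 3908) and 32559 to 68811 CPM in mice. Of these, P2ry12 was above 5 CPM in 25% of the cultures and Tmem119 in 61.7%, whereas all 8 exceeded 5 CPM in every mouse. Cultures were spread over 10 plates (numbered here), and no plate held the same set of conditions as another. The 72 h cultures were on other plates than the 24 h cultures. The exception was 4 cultures given valproic acid for 24 h, which shared plate 5 with 72 h cultures. The column headings also carry a Source ID, with 3 values among the cultures. Untreated cultures had all 3 at 24 h and only 1 at 72 h, as each condition at 72 h did. Comparisons of 24 h with 72 h therefore also differ in Source ID.

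The genes lie on chromosomes 19 and 5 of the mouse genome (GRCm38, GENCODE vM21). Ifit2 (chr19:34550694-34576419, plus strand), Ifit3 (chr19:34583531-34588731, plus) and Ifit1 (chr19:34640871-34650009, plus) lie in the same stretch, with the relatives Ifit1bl1 and Ifit3b between Ifit3 and Ifit1. On chromosome 5, Oasl2 (chr5:114896936-114912234, plus) and Oasl1 (chr5:114923240-114937915, plus) are neighbours, and Oas2 (chr5:120730333-120749853, minus), Oas3 (chr5:120753098-120777661, minus) and Oas1a (chr5:120896256-120907521, minus) form a separate group further along.

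A promoter window of 300 bases, from 250 before to 50 after an annotated start, was at hand for 7 of the 8 genes (RefSeq, GRCm38.p6). An ISRE core, spelled GAAANNGAAA and searched on both strands, was present in the windows of 4 of these 7 genes, against 3.44% of all 32851 windows. The 4 windows are shown because the ISRE is the element type I interferon acts through, with each match in capitals (TTTCNNTTTC where it lies on the opposite strand). The Ifit1 window (chr19:34640639-34640938, plus strand) had matches beginning 104 and 85 bases before the start. Ifit3 (chr19:34583279-34583578, plus) had them at 156 and 122. In Oas1a (chr5:120907476-120907775, minus), overlapping matches began at 20 and 14 bases before the start, and Oas3 (chr5:120777610-120777909, minus) had a single match at 75.
Ifit1: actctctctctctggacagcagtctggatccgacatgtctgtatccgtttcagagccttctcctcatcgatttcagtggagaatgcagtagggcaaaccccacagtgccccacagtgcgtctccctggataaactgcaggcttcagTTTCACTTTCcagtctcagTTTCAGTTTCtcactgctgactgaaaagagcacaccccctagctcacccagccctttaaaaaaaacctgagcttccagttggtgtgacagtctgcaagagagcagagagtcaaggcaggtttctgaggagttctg
Ifit3: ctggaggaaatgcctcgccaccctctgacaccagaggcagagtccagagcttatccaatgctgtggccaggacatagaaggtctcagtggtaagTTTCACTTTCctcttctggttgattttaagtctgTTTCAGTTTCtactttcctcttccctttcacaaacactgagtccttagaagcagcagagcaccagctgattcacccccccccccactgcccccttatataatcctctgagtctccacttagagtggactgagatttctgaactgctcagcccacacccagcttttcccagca
Oas1a: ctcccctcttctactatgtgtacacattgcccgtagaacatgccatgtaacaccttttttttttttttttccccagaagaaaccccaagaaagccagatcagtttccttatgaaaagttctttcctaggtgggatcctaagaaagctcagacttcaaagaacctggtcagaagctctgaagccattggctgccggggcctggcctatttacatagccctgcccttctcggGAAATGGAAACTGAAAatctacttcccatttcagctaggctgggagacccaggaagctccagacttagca
Oas3: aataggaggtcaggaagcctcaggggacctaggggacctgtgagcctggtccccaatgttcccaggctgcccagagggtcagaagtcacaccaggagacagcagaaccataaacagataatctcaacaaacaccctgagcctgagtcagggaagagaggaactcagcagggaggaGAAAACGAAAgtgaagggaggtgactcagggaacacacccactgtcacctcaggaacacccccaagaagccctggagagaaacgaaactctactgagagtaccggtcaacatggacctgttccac
Neither window of Ifit2, nor those of Oasl1 and Oasl2, held these letters. The GAS core TTCNNNGAA occurred in the windows of Oas1a and Ifit2, against 8.3% of all windows.

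Because the libraries read the ends of transcripts, relatives with similar ends can share reads. In the last 500 bases, 70% of the 31-base stretches of Oas1a also occurred in its relative Oas1g, and 24% of those of Ifit3 occurred in Ifit3b. Values of Oas1a and Ifit3 are therefore uncertain as to which copy gave the reads. Summing the copies gave a log2 difference of 3.20 for Oas1a with Oas1g after 24 h of IFNa, against 2.56 for Oas1a alone, and 6.31 for Ifit3 with Ifit3b, against 6.46. Of the stretches of the Oas3 transcript Oas3-201, 28.1% occurred in other genes, at most 8.72% in a single gene. Those of Oas3-202 did not. The effect on Oas3 values was not tested.

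**Figure D1:**
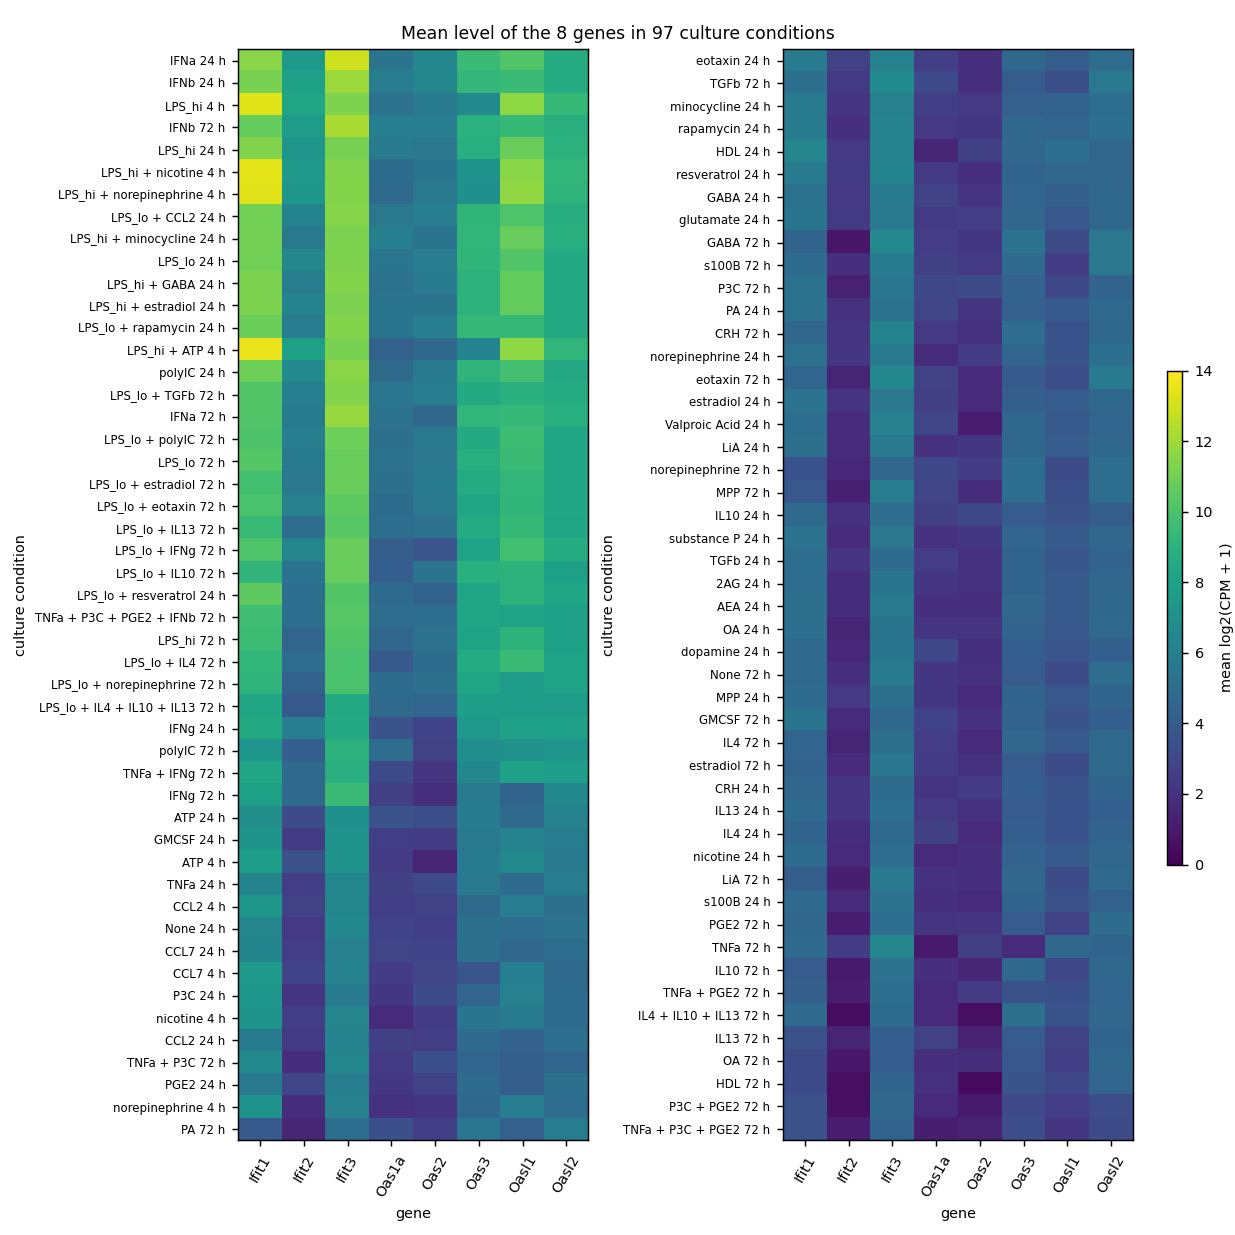
Mean log2(CPM + 1) of the 8 genes (columns) in 97 culture conditions (rows), ordered from high to low by the average of the genes' standardised means and continued in the right panel. Conditions that contain an interferon, LPS or polyIC fill the top of the left panel, and untreated and most other conditions are dark in every column.

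Over the 97 conditions with replicates, the 8 genes separated the panel into a high and a low set, as the heat map of condition means shows. A total of 34 conditions contained an interferon, LPS or polyIC. Conditions were ranked by mean log2(CPM + 1). Of the 34 highest, these made up 34 for Ifit2, Ifit3 and Oasl2, 33 for Ifit1, Oas3 and Oasl1, 32 for Oas1a and 30 for Oas2. IFNg given alone for 72 h was the lowest of the 34 for Oas1a (rank 54 of 97), Oas2 (80), Oasl1 (49) and Oas3 (38). For Ifit1 the exception was polyIC at 72 h, at rank 37. TNFa with IFNg at 72 h also fell outside for Oas1a and Oas2, as did IFNg at 24 h and polyIC at 72 h for Oas2.

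The top condition was not the same for each gene. Ifit1 was highest with LPS_hi and ATP at 4 h (12572 ± 1090 CPM, SD), Ifit2 with LPS_hi at 4 h (308 ± 66.8) and Oasl1 with LPS_hi and norepinephrine at 4 h (3336 ± 765). Ifit3 peaked with IFNa at 24 h (8419 ± 2536), as did Oas3 (742 ± 110), and Oas2 with IFNb at 24 h (92.3 ± 38.2). Oas1a was highest with LPS_hi and minocycline at 24 h (66.0 ± 14.8), and Oasl2 with LPS_hi at 4 h (707 ± 236). Neighbours at the top of each order overlapped in their cultures, apart from the Ifit1 step between the 4 conditions with LPS_hi at 4 h and IFNa at 24 h, whose mean was 2931 CPM. The highest condition mean in CPM exceeded the lowest 1080-fold for Ifit1 and 54.0-fold for Oas1a. Among conditions with none of these agents, the highest were ATP at 4 h for Ifit1 (281 ± 139 CPM), Ifit2 (14.01 ± 10.3) and Oasl1 (128 ± 65.6), and ATP at 24 h for Oas3 (123 ± 154) and Oasl2 (137 ± 157), in which the spread was as large as the mean.

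In untreated cultures at 24 h, the genes were expressed at low but unequal levels that differed by plate. Ifit1, which binds viral RNA whose cap lacks a host methyl mark, ranged from 11.8 to 448 CPM (median 85.1). It was 11.8 to 24.0 CPM on plate 1, 13.8 to 24.8 on plate 2, 90.9 to 140 on plate 7 and 293 to 448 on plate 4. Oasl1, which limits translation of the Irf7 message, showed the same split, with 76.7 to 124 CPM on plate 4 against 3.99 to 54.3 on the others. Plate 4 was thus the highest for both genes without any overlap with the other plates, and within-plate values are given below where they matter.

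**Figure D2:**
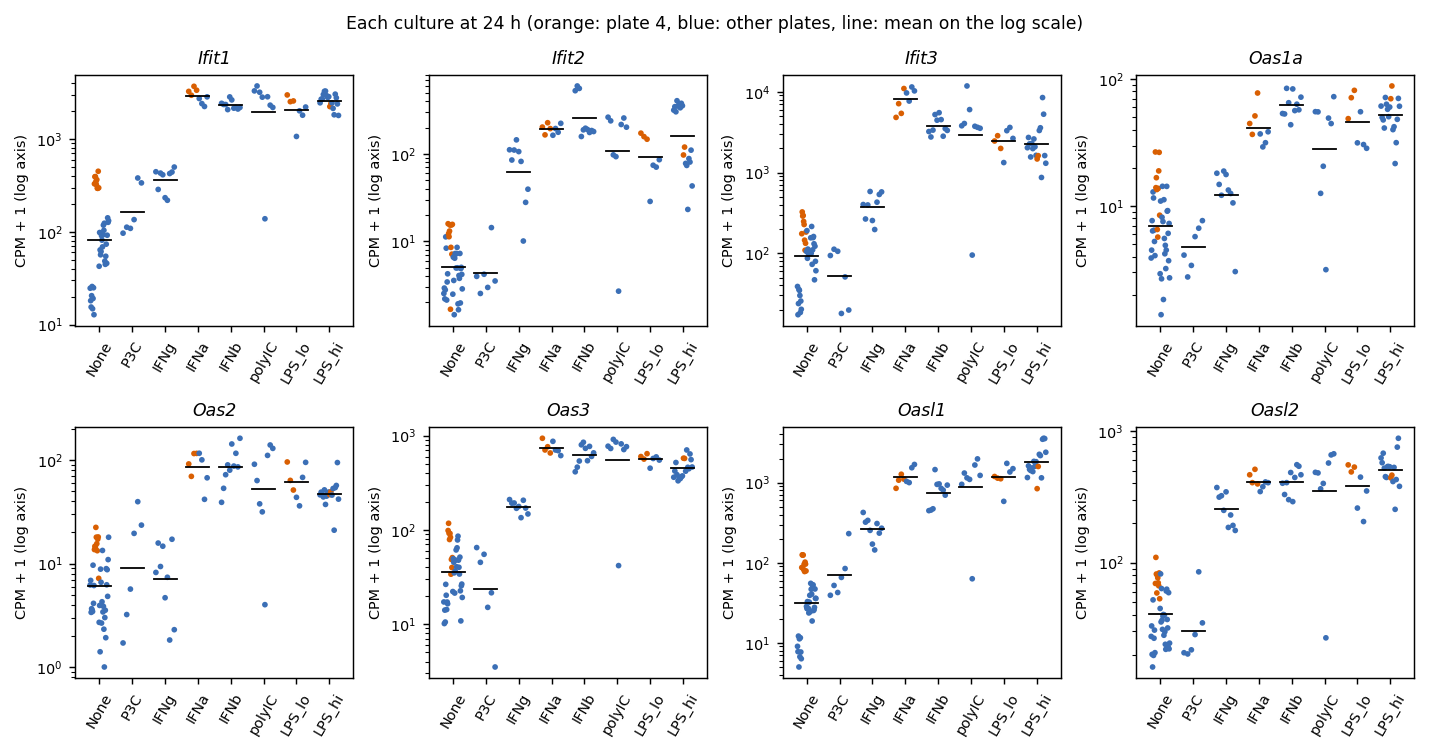
CPM + 1 on a log axis for each culture at 24 h (points; orange for plate 4, blue for other plates) by stimulus, with the mean on the log scale as a line. IFNa and IFNb cultures lie above every untreated culture for all 8 genes, P3C cultures lie among the untreated ones for most genes, and 1 polyIC culture sits far below the other 7.

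Type I interferon raised all 8 genes at 24 h, and each of the 8 IFNa and 10 IFNb cultures exceeded each of the 40 untreated cultures for each gene. Ifit1 rose from an untreated median of 85.1 CPM to 2236 to 3687 with IFNa and 2069 to 2836 (median 2269) with IFNb. Ifit3, a partner of other IFIT proteins, was 16.3 to 324 CPM (median 104) in untreated cultures, 4813 to 11460.0 (median 8671) with IFNa and 2754 to 5507 (median 3425) with IFNb. It thus showed the widest gap of the 8 to the untreated cultures with IFNa. Ifit2, an RNA-binding family member that restricts several viruses in the brain, went from 0.442 to 14.9 CPM (median 3.95) to 162 to 226 (median 194) with IFNa.

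The genes of the OAS family rose as well. Oas3, which prefers long double-stranded RNA, was 9.13 to 117 CPM (median 37.2) untreated, 614 to 937 (median 704) with IFNa and 413 to 850 (median 629) with IFNb. Oas2 was 0 to 21.4 CPM (median 5.23) untreated and 38.2 to 162 (median 86.0) with IFNb. Oas1a, whose untreated cultures reached 25.7 CPM (median 5.92), was 28.3 to 76.7 (median 36.8) with IFNa, so that its groups came closest to touching. Oasl1 went from a median of 31.5 CPM to 1089 with IFNa (849 to 1687), and Oasl2, an OAS relative with ubiquitin-like domains, from 37.1 to 403 (345 to 510).

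In the limma fit on log2(CPM + 1) over all cultures, with Benjamini-Hochberg adjustment over 16935 genes, a gene was called when its adjusted p was below 0.05 and its log2 difference at least 1. All 8 genes were called higher with IFNa, where 3.22% of all genes were, and all 8 with IFNb, where 3.46% were. The log2 differences for IFNa were 6.46 ± 0.48 (SE) for Ifit3 (adjusted p = 1.7e-33), 5.26 ± 0.41 for Ifit2, 5.20 ± 0.44 for Oasl1, 5.13 ± 0.44 for Ifit1, 4.38 ± 0.34 for Oas3, 3.80 ± 0.40 for Oas2, 3.34 ± 0.33 for Oasl2 and 2.56 ± 0.42 for Oas1a (adjusted p = 1.1e-07). For IFNb they ran from 3.15 ± 0.38 for Oas1a (adjusted p = 1.2e-13) to 5.67 ± 0.37 for Ifit2 (adjusted p = 8.4e-42). The median over the 8 genes was 4.76 for IFNa and 4.35 for IFNb, against medians over all genes of -0.18 and -0.10. No overlap with the untreated cultures was found for 1.05% of all genes with IFNa and 1.09% with IFNb. Within plates, the Ifit1 difference for IFNa was 3.26 on plate 4, where untreated cultures were high, and 5.46 on plate 8.

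IFNa and IFNb did not differ for any of the 8 genes at the threshold. The log2 difference IFNa minus IFNb was 1.10 ± 0.59 for Ifit3 (limma, adjusted p = 0.58), -0.59 ± 0.52 for Oas1a and between -0.41 and 0.64 for the other 6. Of all genes, 0.201% were higher with IFNa and 0.449% with IFNb. The doses differed and the 2 interferons shared no plate, so agent, dose and plate cannot be told apart in this comparison.

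**Figure D3:**
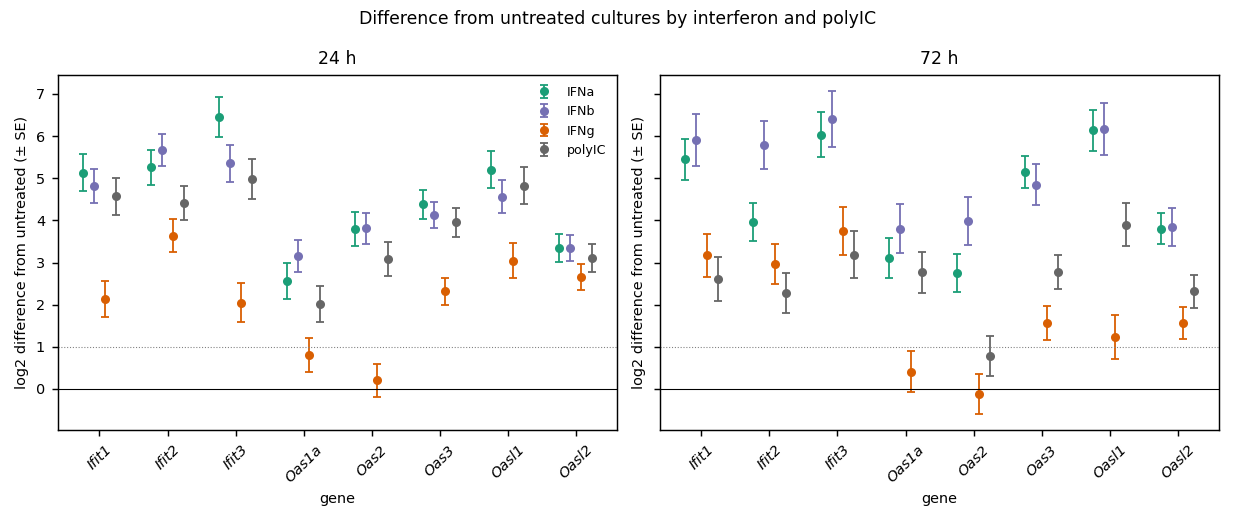
Log2 difference from untreated cultures (± SE, limma) for each gene at 24 h (left) and 72 h (right) with IFNa, IFNb, IFNg and polyIC; the dotted line marks a difference of 1. IFNg lies below both type I interferons for each gene at 24 h, and near 0 for Oas2 at both times.

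IFNg raised some of the genes and not others. At 24 h, 6 of the 8 were called higher (4.4% of all genes): Ifit2 by 3.64 ± 0.39 (SE), Oasl1 by 3.04 ± 0.42, Oasl2 by 2.66 ± 0.31, Oas3 by 2.32 ± 0.33, Ifit1 by 2.13 ± 0.42 and Ifit3 by 2.05 ± 0.46 (limma, adjusted p from 1.8e-17 to 0.00023). Oas2 differed by 0.21 ± 0.39 (adjusted p = 0.87) and Oas1a by 0.80 ± 0.40 (adjusted p = 0.23). Oas2 in the 9 IFNg cultures was 0.823 to 16.2 CPM (median 7.22), inside the untreated range, whereas its neighbour Oas3 was 134 to 209 CPM (median 176), above each untreated culture. Oasl1 (144 to 424 CPM, median 269) and Oasl2 (lowest 174, median 248) likewise lay wholly above the untreated cultures, a separation that 1.09% of all genes showed. Ifit1 with IFNg was 218 to 497 CPM (median 423), and only 1 of 9 cultures exceeded the highest untreated culture, which was on plate 4, a plate without IFNg. Within the 3 plates that held IFNg, the Ifit1 difference was 2.43 to 4.34, while that of Oas2 was 0.22 to 1.17 and that of Oas1a 0.37 to 1.53.

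The interferons were also compared with each other at 24 h. IFNb exceeded IFNg for 6 of 8 genes (1.52% of all genes), led by Oas2 at 3.61 ± 0.48 and Ifit3 at 3.31 ± 0.57. Oasl1 (1.52 ± 0.52, adjusted p = 0.066) and Oasl2 (0.69 ± 0.39, adjusted p = 0.47) did not pass. IFNa exceeded IFNg for 7 of 8 (2.06% of all genes), again with Oasl2 as the exception (0.69 ± 0.41, adjusted p = 0.35, limma). IFNb and IFNg were both present on plates 2 and 3. IFNa and IFNg shared no plate and differed in dose, so agent, dose and plate cannot be told apart for this pair. With culture plate as a term in the fit, the Oasl1 difference between IFNa and IFNg fell from 2.16 to 0.65 and lost its call.

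At 72 h, type I interferon still held all 8 genes above untreated cultures. All were called higher with IFNa (2.85% of all genes) and with IFNb (3.58%). In the 4 IFNb cultures, Ifit1 was 1460.4, 1801, 1761 and 1534 CPM, against 2.34 to 316 (median 28.2) in untreated cultures. Oasl1 in the same cultures was 650.4, 654, 694 and 673 CPM, against 0 to 137 (median 10.4). Each IFNb culture exceeded each untreated culture for all 8 genes, which 2.13% of all genes did. The limma log2 differences with IFNb ran from 3.81 ± 0.59 for Oas1a (adjusted p = 2.1e-08) to 6.41 ± 0.67 for Ifit3 (adjusted p = 1.4e-17). With IFNa, 5 genes were free of overlap (0.431% of all genes). The exceptions were Ifit2, Oas1a and Oas2, for which 4, 5 and 5 of the 7 IFNa cultures exceeded the highest untreated culture, on plate 6 (replicate 10). An IFNa culture (replicate 5) had only 2.56 CPM of Oas1a and 0 of Oas2, inside the untreated range whether or not that culture is counted. The untreated culture of plate 6 had the highest level of all 8 genes among the untreated cultures at 72 h, with 1538 CPM of Ifit3 and 74.4 CPM of Ifit2.

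IFNg at 72 h raised 5 of the 8 genes (4.29% of all genes): Ifit3 by 3.74 ± 0.57, Ifit1 by 3.17 ± 0.52, Ifit2 by 2.96 ± 0.48, and Oas3 and Oasl2 by 1.56 each (limma, adjusted p from 7.5e-09 to 0.0019). Oas2 was again at the untreated level, with 0 to 9.89 CPM (median 4.22) and a difference of -0.12 ± 0.47 (adjusted p = 0.94). Oasl1 fell short of the threshold (1.23 ± 0.52, adjusted p = 0.088), with cultures spread from 0 to 240.0 CPM. The response to IFNg at 72 h did not differ from that at 24 h for any of the 8 (1.14% of all genes higher and 2.59% lower). With culture plate as a term, the Oasl1 response was lower at 72 h by 2.63 on the log2 scale (adjusted p = 0.00061), as was that of Oasl2 by 1.47 (adjusted p = 0.039). Responses to IFNa (0.39% of all genes higher, 0.307% lower) and IFNb (0.236% and 0.154%) differed between the times for none of the 8. Oas2 was not raised by IFNg on top of LPS_lo either. In 7 cultures given LPS_lo with IFNg for 72 h, Oas2 was 4.58 to 25.96 CPM (median 13.6), against 23.6 to 87.3 (median 47.9) in 11 cultures with LPS_lo alone. The difference was -1.83 ± 0.50 (limma, adjusted p = 0.016; 1.31% of all genes were lower), and none of the other 7 genes was called. On plate 6 the ranges overlapped (7.66 to 25.96 against 23.6 to 38.5), and on plate 10 they did not (4.58 to 17.003 against 56.2 to 87.3). The Oas2 call was lost with a pseudocount of 0.5.

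PolyIC raised all 8 genes at 24 h (2.89% of all genes), by 2.01 ± 0.42 for Oas1a to 4.98 ± 0.48 for Ifit3 (limma, adjusted p = 6.4e-05 and 7.4e-21). Ifit1 had a median of 2832 CPM and Ifit3 of 3763, with 11795 in the highest culture. A single culture on plate 3 (replicate 5) stood apart at 137 CPM of Ifit1, 1.68 of Ifit2, 93.9 of Ifit3, 40.8 of Oas3, 62.1 of Oasl1 and 25.8 of Oasl2, levels found in untreated cultures. No gene of the 8 was therefore free of overlap (0.224% of all genes), and all 8 calls were also made without that culture.

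By 72 h, the polyIC cultures were split. Ifit3 was 1053 and 95.5 CPM on plate 6 and 1891, 2058, 2519 and 16.4 on plate 10, against an untreated median of 77.4. Ifit1 in the same cultures was 215, 44.9, 346, 353, 506 and 33.8 CPM. The same 2 cultures (replicates 2 and 6) were low for both genes. In the fit, 7 of 8 genes were called higher (2.8% of all genes), with Oasl1 at 3.90 ± 0.52 and Oas2 short of the threshold at 0.78 ± 0.47 (limma, adjusted p = 0.32). Oas2 in polyIC cultures was 0.781 to 13.2 CPM at 72 h after 3.01 to 139 (median 76.5) at 24 h. The response was lower at 72 h than at 24 h for Oas2 (-2.31 ± 0.62, adjusted p = 0.01) and Ifit2 (-2.14 ± 0.63, adjusted p = 0.023), as it was for 2.04% of all genes. Without the low 24 h culture, 5 of the 8 responses were lower at 72 h, and without the low 72 h cultures none was. Shares over all genes are not given for these fits, so both counts only describe how calls moved.

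**Figure D4:**
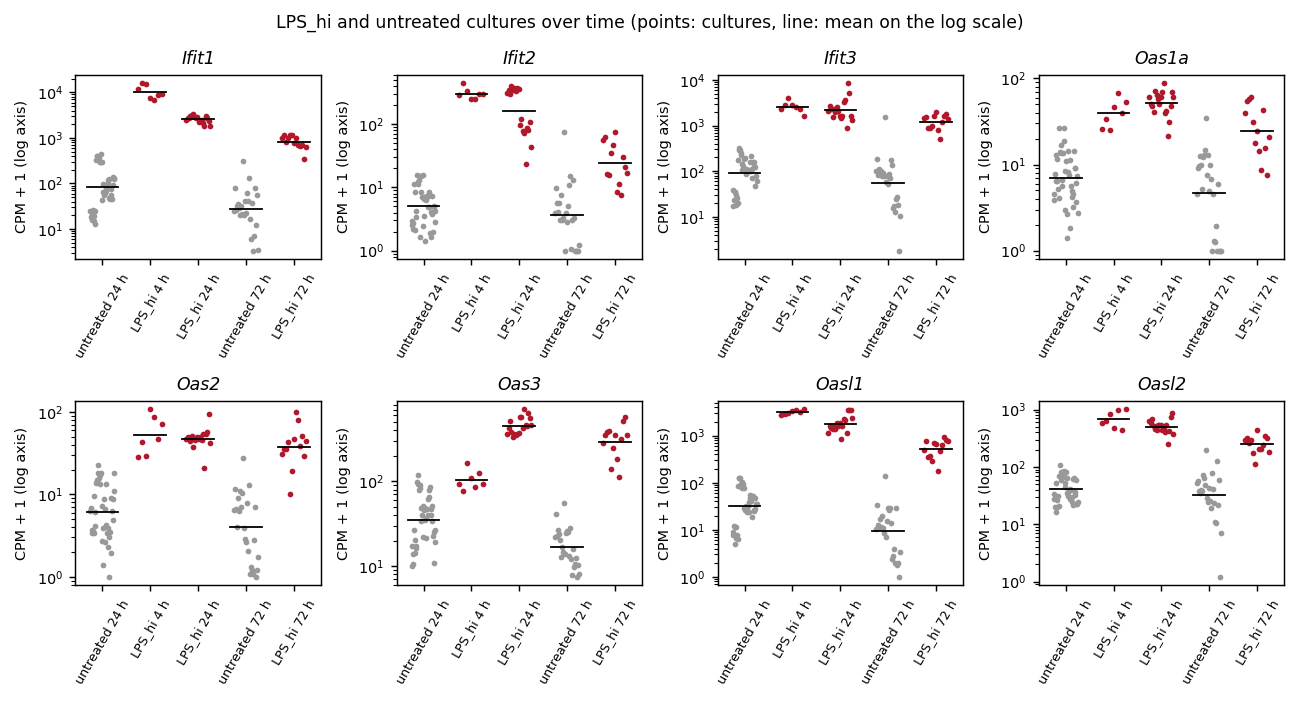
CPM + 1 on a log axis for each culture (points) of LPS_hi at 4, 24 and 72 h in red and of untreated cultures at 24 and 72 h in grey, with the mean on the log scale as a line. Ifit1 is highest at 4 h, Oas3 is close to the untreated cultures at 4 h and far above them at 24 h, and Ifit2 at 24 h forms separate groups of cultures.

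LPS raised all 8 genes at 4, 24 and 72 h, but the genes differed in timing. At 4 h, Ifit1 in the 7 LPS_hi cultures was 6849 to 16018 CPM (median 9161), Oasl1 2758 to 3637 (median 3212), Ifit2 251 to 446 (median 295) and Oasl2 441 to 1009 (median 638). Oas3 was only 76.0 to 163 CPM (median 91.5), overlapping the untreated range at 24 h. There were no untreated cultures at 4 h, so the wells given the chemokines CCL2 and CCL7 for 4 h on the same plates served as a further reference. Ifit1 in those wells was 102 to 407 CPM (median 122) with CCL2 and 105 to 310.0 (median 207) with CCL7.

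All 8 genes were called higher at 4 h against untreated cultures at 24 h (5.45% of all genes) and against the chemokine wells (5.2%). Against untreated cultures, the log2 difference was 6.96 ± 0.47 for Ifit1 (limma, adjusted p = 1.7e-41), 6.66 ± 0.46 for Oasl1, 5.92 ± 0.43 for Ifit2, 4.80 ± 0.51 for Ifit3, 4.06 ± 0.35 for Oasl2, 3.10 ± 0.43 for Oas2, 2.49 ± 0.45 for Oas1a and 1.55 ± 0.36 for Oas3 (adjusted p = 0.00018). Against the chemokine wells, that of Oas3 was 2.38 ± 0.41 and that of Ifit1 5.82 ± 0.53. Apart from Oas1a and Oas3, each gene was above every untreated culture in all 7 LPS_hi cultures, as were 2.15% of all genes.

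At 24 h, LPS_hi (5.25% of all genes higher) and LPS_lo (4.15%) each raised all 8 genes. Oas3 had reached 331 to 704 CPM (median 433) with LPS_hi and 451 to 643 (median 572) with LPS_lo, with no overlap with 4 h. Ifit1 was 1790.3 to 3276 CPM (median 2688), below each culture at 4 h. The comparison of LPS_hi at 4 h with 24 h was added after the values had been seen. Ifit1 was higher at 4 h by 2.00 ± 0.51 (limma, adjusted p = 0.0013; 3.71% of all genes were higher) and Oas3 lower by 2.12 on the log2 scale (adjusted p = 4.1e-06; 11% were lower), while the other 6 were not called. With culture plate as a term the Oas3 difference was -2.49 (adjusted p = 3.5e-10), and that of Ifit1 was 0.89 and not called (adjusted p = 0.13). The 10-fold range of LPS dose made no called difference at 24 h (0.248% of all genes higher with LPS_hi, 0.0295% lower), with log2 differences from -0.37 ± 0.47 for Oas2 to 0.81 ± 0.47 for Ifit2.

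Ifit2 differed by plate under several agents. With LPS_hi at 24 h it was 302 to 405 CPM on plates 1 and 2 and 22.1 to 119 on the other 4 plates. With IFNb at 24 h it was 528 to 598 CPM on plate 2 and 157 to 196 on plates 3 and 7, and with IFNg 80.98 to 144 on plates 1 and 2 and 9.05 to 38.4 on plate 3. These ranges did not overlap for any of the 3 agents, whereas Ifit1 with LPS_hi stayed within 1790.3 to 3276 CPM over all plates. Ifit2 was also the gene whose LPS_hi response was lower at 72 h than at 24 h (-2.28 ± 0.47, limma, adjusted p = 0.00011; 3.19% of all genes were lower). It was 6.72 to 74.3 CPM (median 19.9) at 72 h, on plates other than those of the 24 h cultures, so time and plate cannot be told apart. The Source IDs also differed, with 3 at 24 h and 1 at 72 h. The LPS_lo response differed between the times for none of the 8 (2.55% of all genes higher, 0.596% lower).

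At 72 h all 8 genes were called higher with LPS_hi (3.59% of all genes) and LPS_lo (4.4%). Oasl1 showed the largest differences, 5.81 ± 0.39 and 6.32 ± 0.41, and Oas1a (2.40 ± 0.37) and Ifit2 (2.70 ± 0.36) were the smallest with LPS_hi (limma, adjusted p at most 6.1e-09). Ifit1 was 347 to 1174 CPM (median 816) with LPS_hi and 1041 to 1581 (median 1198) with LPS_lo. Every LPS_hi culture exceeded every untreated one for Ifit1, Oas3 and Oasl1, as it did for 0.348% of all genes. With LPS_lo, 3 of the 8 genes were free of overlap (0.732% of all genes).

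P3C, which acts through another Toll-like receptor, gave no call for any of the 8 at 24 h (3.22% of all genes higher, 16.9% lower) or at 72 h (4.81% and 2.57%). At 24 h, Ifit1 was 95.7 to 379 CPM (median 123) and Ifit3 16.97 to 111 (median 71.3), both within the untreated range, whose upper end for Ifit1 was set by plate 4, a plate without P3C. On plate 7, Ifit1 was 134 to 379 CPM with P3C (3 cultures) and 90.9 to 140 without (4 cultures), a log2 difference of 1.09, beside 1.59 for Oasl1 and 1.47 for Oas2. On plate 3 these differences were 0.33, 0.45 and -0.18. The log2 differences ran from -0.81 ± 0.55 for Ifit3 to 1.13 ± 0.50 for Oasl1 (limma, adjusted p = 0.31 and 0.085). Without the untreated cultures of plate 4, Ifit1 (1.69, adjusted p = 0.0052) and Oasl1 (1.67, adjusted p = 0.0064, limma) were called higher at 24 h, as were 3.43% of all genes. With library pool as a term, Ifit1 was called (1.11, adjusted p = 0.037). Oas2 reached 38.7 CPM in 1 culture at 24 h, and at 72 h its difference was 1.28 ± 0.47 (adjusted p = 0.07). Leaving out the high untreated culture of plate 6 turned the latter into a call, at 1.39 (adjusted p = 0.0398).

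Untreated cultures at 72 h were lower than those at 24 h for Oasl1 (-1.77 ± 0.29), Ifit1 (-1.60 ± 0.29) and Oas3 (-1.07 ± 0.23; limma, adjusted p at most 6.2e-05), as were 6.23% of all genes. With plate in the fit none was called, and the Ifit1 difference was 0.63. That fit links the plates of 24 h and 72 h only through the valproic acid cultures, so it cannot decide the question. The change with time cannot be told apart from that with plate, and the Source IDs also differed (3 at 24 h, 1 at 72 h).

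Adding IFNb to a mixture of other agents raised all 8 genes. In 7 cultures given TNFa, P3C and PGE2 for 72 h, Ifit1 was 2.25 to 30.4 CPM (median 17.3) and Oasl1 0.447 to 10.8 (median 5.71). In 7 cultures that also received IFNb, Ifit1 was 642 to 1139 CPM (median 836) and Oasl1 196 to 430.1 (median 252). The groups did not overlap for either gene, and all 8 genes were called higher (1.94% of all genes), by 3.74 ± 0.56 for Oas2 to 6.26 ± 0.61 for Ifit1 (limma, adjusted p = 1e-08 and 4.6e-20). Adding IFNg to TNFa raised 7 genes (15.2% of all genes) and not Oas2 (-0.44 ± 0.71, adjusted p = 0.74). The TNFa group held 3 cultures. Without replicate 3 the count was 4, in a fit for which the share over all genes is not given.

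Most modulators given with LPS left the 8 genes without a call. No call was made for LPS_lo with resveratrol (0.437% of all genes higher, 0.378% lower), rapamycin (0.1%, 0.0709%) or CCL2 (0.0177%, 0.0118%) at 24 h, nor for LPS_hi with estradiol at 24 h (0.165%, 0.248%) or with ATP (1.26%, 0.596%), nicotine (0.862%, 0.218%) or norepinephrine (0.886%, 0.502%) at 4 h. With resveratrol the differences of all 8 genes were negative, from -1.60 ± 0.54 for Oas2 (limma, adjusted p = 0.14) to -0.31 ± 0.44 for Oasl2, with a median of -1.003 against 0.08 over all genes. Oas2 was 23.4 to 40.8 CPM with LPS_lo and resveratrol on plate 4, against 50.5 to 95.2 with LPS_lo alone, and 6.002 to 21.2 against 35.2 to 94.4 on plate 8. The ranges did not overlap on either plate. Calls of lower genes were made under other settings. There were 2 with a pseudocount of 5 (Ifit2 and Oas2) and 2 with library pool as a term (Ifit3 and Oasl1). With only the groups compared in the fit there were 3 (Ifit3, Oas2 and Oasl1). Shares over all genes are not given for these settings, so the counts only describe how calls moved. With LPS_hi and minocycline (0.0886% of all genes higher, 0.142% lower) or GABA (0.0827%, 0.278%) at 24 h there was likewise no call, and the Ifit2 difference was -1.65 ± 0.47 (limma, adjusted p = 0.11) and -1.36 ± 0.45 (adjusted p = 0.2). With plate as a term, both passed (-1.78, adjusted p = 0.0241, and -1.57, adjusted p = 0.0386).

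Calls were made for the mixture of the anti-inflammatory cytokines IL4, IL10 and IL13, which was given with LPS_lo to 5 cultures for 72 h. The 3 Ifit genes were lower than with LPS_lo alone (3.18% of all genes were), by 2.26 on the log2 scale for Ifit3 (± 0.67), 2.00 for Ifit1 (± 0.61) and 1.89 for Ifit2 (± 0.57; limma, adjusted p = 0.02, 0.027 and 0.022). On plate 5, Ifit1 was 169, 239 and 138 CPM with the mixture and 1041 to 1433 with LPS_lo alone. Ifit3 on that plate was 147, 255 and 129.8 CPM against 1401 to 1707. The groups were thus far apart on the plate they shared, and the other 2 cultures, on plate 9 with no LPS_lo culture beside them, had 693 and 764 CPM of Ifit1 and 975 and 1234 of Ifit3. Leaving out any of the 3 cultures of plate 5 removed all 3 calls. None of the 8 genes was called with IL4 (0.809% of all genes higher, 1.07% lower), IL10 (0.425%, 1.91%) or IL13 (0.0827%, 0.059%) alone on top of LPS_lo. The same held for TGFb (1.57%, 1.35%) and for polyIC (0.0236%, 0.0118%) with LPS_lo at 72 h, with log2 differences from -0.67 to 0.61 and from -0.23 to 0.25.

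The 49 other single stimuli of the panel, 31 at 24 h and 18 at 72 h, gave 392 tests of the 8 genes. A gene was called higher in 2 (1.14% of all tests over all genes) and lower in 17 (1.07%), with log2 differences from -2.37 to 1.41. The higher calls were both Oas3 at 72 h, with palmitic acid (labelled PA; 1.41 ± 0.38, adjusted p = 0.011) and GABA (1.24 ± 0.36, adjusted p = 0.013, limma), and both held with plate as a term. Of the 17 lower calls, 15 were at 24 h, and none of these 15 held with plate as a term. They included Ifit1 with IL4 (-1.84 ± 0.39, adjusted p = 0.00024). The largest decrease was that of Oas3 with TNFa at 72 h (-2.37 ± 0.54, adjusted p = 0.00015; -1.97 with plate as a term), in 3 cultures.

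The rest of the pathway was read from a list of 30 genes, of which 29 were tested in cultures. At 24 h, 20 were higher with IFNa (3.22% of all genes were), 19 with IFNb (3.46%) and 15 with IFNg (4.4%). With LPS_hi 19 were higher (5.25%) and with polyIC 17 (2.89%). None was lower with IFNa or IFNg. With each of IFNb, LPS_hi and polyIC 1 was lower, for which shares over all genes are not given. With P3C, 2 were higher and 4 lower, where 3.22% and 16.9% of all genes were. The P3C counts are therefore not read as a result on the pathway. Among the transcription factors, Stat2, needed for the ISRE complex, rose by 3.85 with IFNa and 1.20 with IFNg, and Irf9, its DNA-binding partner, by 1.49 with IFNa and 0.56 with IFNg (adjusted p = 0.22, not called). Irf7, which drives further interferon production, rose by 5.33 and 2.59. Irf1, a target of IFNg, rose by 1.95 and 4.40. The ligand Ifnb1 differed by 4.11 ± 0.12 (limma) with LPS_hi at 4 h and by 0.03 at 24 h. Whether it passed the filter, above 5 CPM in at least 4 cultures, only through LPS cultures at 4 h was not checked. Its difference is therefore given on that condition and without a p-value.

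In mice, 5 of the 8 genes passed the filter on low values, above 5 CPM in at least 4 mice. Oasl1 passed only through the LPS mice (1 of 4 PBS mice was above 5 CPM), so that its passing is no separate evidence of a rise. Ifit1, Ifit3, Oas3 and Oasl2, which were above 5 CPM in all 8 mice, were each higher in all 4 LPS mice than in all 4 PBS mice. Ifit1 was 32.2, 16.6, 25.7 and 32.1 CPM with PBS and 242, 327, 400 and 315 with LPS. Oasl1 was 1.18, 3.32, 5.34 and 2.75 CPM with PBS and 52.7, 53.9, 82.1 and 79.8 with LPS. On the log2 scale these genes, Oasl1 on the condition above, showed the largest differences. Ifit3 went from 80.5, 105, 69.6 and 73.0 CPM to 191, 228, 273 and 245, Oasl2 from 16.3, 9.99, 13.7 and 15.5 to 28.2, 45.3, 43.8 and 34.6, and Oas3 from 5.24, 10.5, 6.08 and 6.53 to 12.98, 15.9, 16.7 and 13.3. For Oas3 the lowest LPS mouse was close to the highest PBS mouse.

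The log2 differences were 3.56 ± 0.21 for Ifit1 (limma over 9012 genes, adjusted p = 1e-08), 1.51 ± 0.16 for Ifit3 (6.4e-06), 1.39 ± 0.21 for Oasl2 (0.00025) and 0.99 ± 0.24 for Oas3 (0.0093). For Oasl1, which passed the filter only through the LPS mice, the difference was 4.11 ± 0.29 (limma, adjusted p = 1.1e-07). At an adjusted p below 0.05, 8.79% of all genes were higher, and 9.37% were free of overlap. Ifit2 (0.594 to 3.48 CPM with PBS, 3.71 to 9.56 with LPS), Oas1a and Oas2 were too low to be tested. Of 27 pathway genes tested, 18 were higher and 1 lower, with Irf7 at 2.38 and Stat2 at 1.55. The summed level of 4 neutrophil markers was 63.3 to 130 CPM with PBS and 140.0 to 254 with LPS, and that of 4 monocyte markers 20.2 to 45.9 and 43.9 to 96.6. The microglial markers summed to 43611 to 54669 and 46557 to 52122 CPM. Fewer cells of a type and less RNA per cell cannot be told apart in such samples, and the part of other cells in the rise of the Ifit and Oas genes was not tested.

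**Figure D5:**
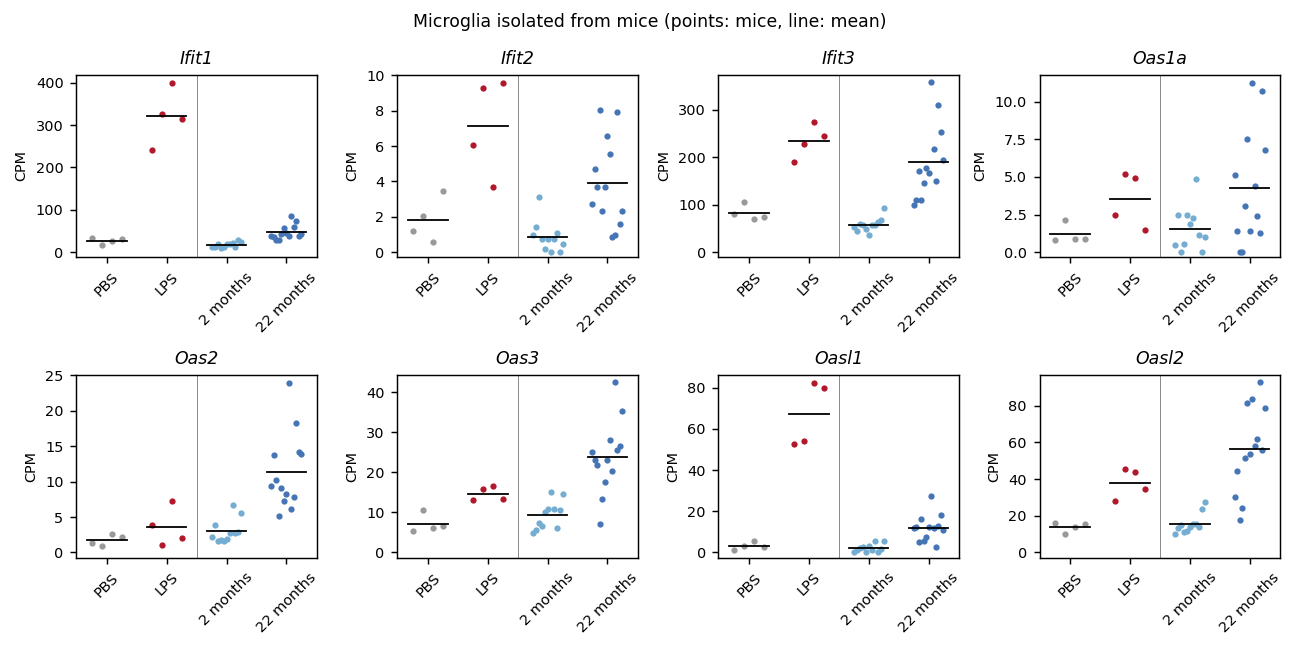
CPM of each gene in microglia from each mouse (points) with the group mean (line), for PBS and LPS at 4 h on the left of each panel and for 2 and 22 months on the right. On the log2 scale, LPS raises Ifit1 and Oasl1 the most, the latter tested only because of its level in the LPS mice. The 22-month mice exceed the 2-month mice without overlap for Ifit1 and Ifit3.

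Ifit1, Ifit3, Oas3 and Oasl2 were higher in microglia from aged mice. Oas2 and Oasl1 passed the filter, above 5 CPM in at least 11 mice, only through the aged mice (2 of 11 young mice were above 5 CPM for each, against 13 and 12 of 13 aged mice), and their values are given on that condition. Ifit1 was 9.64 to 28.6 CPM (median 18.3) at 2 months and 29.7 to 84.6 (median 42.3) at 22 months. Ifit3 was 35.5 to 92.4 CPM (median 57.9) at 2 months and 99.7 to 358 (median 171) at 22 months. For both, each of the 13 aged mice exceeded each of the 11 young mice, which 0.187% of all genes did. Oasl2 was 9.91 to 27.5 CPM (median 14.02) and 17.7 to 92.7 (median 56.0), Oas2 1.58 to 6.69 (median 2.75) and 5.08 to 23.9 (median 9.33), Oas3 4.91 to 15.1 (median 10.1) and 6.99 to 42.5 (median 23.1), and Oasl1 0 to 5.60 (median 1.89) and 2.52 to 27.4 (median 12.04). These 4 overlapped between the ages.

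The column headings carry an Experiment ID that divides these males into sets of 8 and 16 mice. With this ID as a term, the log2 difference of aged from young mice was 1.67 ± 0.16 for Oasl2 (limma over 9632 genes, adjusted p = 6.3e-09), 1.60 ± 0.15 for Ifit3 (4.7e-09), 1.40 ± 0.15 for Ifit1 (5.5e-08) and 1.20 ± 0.19 for Oas3 (4.1e-05). On the filter condition above, it was 2.08 ± 0.32 for Oasl1 (limma, adjusted p = 3.6e-05) and 1.58 ± 0.22 for Oas2 (9.4e-06). Of all genes, 6.95% were higher. In the set of 8 mice alone, Ifit1, Ifit3 and Oasl1 were called (0.455% of all genes were higher). Oasl1 passed the filter there only through the aged mice, being above 5 CPM in 0 of 4 young and 4 of 4 aged mice. Oasl2 in aged mice was 17.7 to 44.3 CPM in the set of 8 and 51.4 to 92.7 in the set of 16. Ifit2 (0 to 3.10 CPM at 2 months, 0.876 to 8.04 at 22 months) and Oas1a (0 to 4.88 and 0 to 11.2) were not tested. Oas2 passed the filter in these mice and not in those given LPS, where it was 1.09 to 7.23 CPM. Of 25 pathway genes tested, 12 were higher and 1 lower, with Irf7 at 1.57 and Stat2 at 0.37. Markers of other blood cells also moved with age: neutrophil markers summed to 129 to 1053 CPM at 2 months and 298 to 3636 at 22 months, monocyte markers to 36.1 to 118 and 57.7 to 311, and T cell markers to 0.365 to 10.9 and 5.38 to 45.8. Microglial markers summed to 32814 to 68811 and 32559 to 59691 CPM. The part of these cells in the age difference was not tested.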

How the data were processed

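RNA was measured by 3′-end sequencing in 784 microglial cultures (98 conditions, 97 with replicates) and in microglia from 32 mice. The authors assigned reads to transcripts (salmon 0.7.1, Ensembl build 81), summed them per gene, divided them by the mapped reads and removed cultures under 1 M reads. The deposited values are CPM, counts per 1000000 mapped reads. When the size of 1 read was estimated from low values, too few values came out as whole reads (as low as 70.2% in a culture, tolerance 0.1), so no count test was run. The labels also name mm8 as a build, and no coordinate was taken from the files.

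Genes above 5 CPM in at least 4 samples (11 in aging) were tested with limma 3.58.1 (R 4.3.3), with a trend, on log2(CPM + 1), so that differences of low genes are understated. All 97 culture groups shared 1 fit and the untreated groups served many comparisons. Calls in mice needed no minimum difference. The comparisons of the interferons, LPS and polyIC with untreated cultures share controls. Labels gave the groups. Every gene of the 8 is named by rule, and a pathway gene only as an example of its role. The members and lists were chosen with earlier results of these data known. Sequence windows and plots used Python 3.11.15 and GENCODE vM21. The fits were tested on simulated data. Alternatives changed the pseudocount, the filter, the minimum difference, the samples in the fit and the test. Others added plate or library pool as a term. All used the same CPM values, and no other normalization was tried. With few replicates, each was left out in turn. Some genes of the pathway list are not reported here by name.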

Additional observations from a re-analysis of the deposited data

Results flagged for a closer look

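Single cultures far from the rest of their group (Dixon's 95% limit, groups of 4 to 10) were found in 32 of 274 pairs of gene and group, or 11.7%. The same cultures were tested for up to 8 genes that vary together, so this share is a description and is not set against a chance rate. Of these, 30 were low and 2 were high. In the polyIC group at 24 h, replicate 5 was low for Ifit1 (137 CPM), Ifit2 (1.68), Ifit3 (93.9), Oas2 (3.01), Oas3 (40.8), Oasl1 (62.1) and Oasl2 (25.8). With IFNa at 72 h, replicate 5 had 2.56 CPM of Oas1a and 0 of Oas2, and with IFNb at 72 h, replicate 3 had 47.1 CPM of Oas2. With IFNg, Oas1a was 2.05 CPM in replicate 9 at 24 h, and at 72 h Oas3 was 14.1 in replicate 6 and Oasl2 was 7.74 in replicate 5.

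Among LPS_lo conditions, Ifit1 was low with CCL2 (1039 CPM), with TGFb (769) and with resveratrol (680.2), Oas1a was listed at 0 in a culture with IL4, and Oasl1 was low with IL13 (339), with resveratrol (140.4) and with LPS_lo alone at 24 h (583), and high with TGFb (757). Among LPS_hi conditions, Ifit1 was low with minocycline (960.0) and with nicotine at 4 h (8449), Ifit2 was low with GABA (17.2) and with nicotine (94.2), and Oasl2 was low with norepinephrine at 4 h (306). With P3C, Ifit1 was 3.11 CPM in a culture at 72 h and Ifit2 was high at 13.3 CPM in a culture at 24 h. Oas3 was listed at 0 with CCL7 at 4 h, and was 22.4 CPM with TNFa and IFNg and 0.224 with TNFa, P3C and PGE2. Oasl2 was 101 CPM in a culture with TNFa, P3C, PGE2 and IFNb.

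Responses that differed between 24 and 72 h by a test of the difference were those of Ifit2 to LPS_hi (-2.28) and to polyIC (-2.14) and that of Oas2 to polyIC (-2.31). A single culture labelled LPS_hi at 72 h carried the LPS_lo dose (0.00001 ug/ul) and entered no comparison. It exceeded the highest untreated culture at 72 h for Ifit1 (510 against 316 CPM), Oas2 (49.6 against 26.6), Oas3 (267 against 54.8), Oasl1 (230.1 against 137) and Oasl2 (209 against 195).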

How the results depend on the processing

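Of the counts of called genes, 336 stayed within 1.5 times under the alternatives and 40 did not, and leaving out single cultures or mice kept 82 and moved 7. Of single-gene results, 3150 kept their call and direction, 44 gained a call, 71 lost it and 2 reversed. With plate as a term, LPS dose gave 1 call (0.248% of all genes higher, 0.0354% lower) and the IFNg response over time 2 lower (3.64%). LPS_hi with minocycline gave 1 lower (0.0945%) and with GABA 1 lower (0.171%). The other single stimuli gave 7 higher and 5 lower in 392 tests, against 1.34% and 1.03% of all tests over all genes. Untreated cultures at 72 h against 24 h gave 0 calls (Ifit1 reversed to 0.63, and to 0.38 with library pool). With plate, that comparison is linked only through the valproic acid cultures. For the counts that follow, shares over all genes are not given, so they only describe how calls moved. With library pool as a term, the counts were 1 for P3C at 24 h, 0 for untreated cultures over time, 1 for the IFNg response, 2 for resveratrol, 1 for minocycline, 1 for GABA, and 9 higher and 5 lower for the other stimuli. The exact rank-sum test with Bonferroni correction gave 2 for polyIC at 24 h, 5 for IFNa at 72 h, 2 for aging and 0 for IFNg and polyIC at 72 h, for untreated cultures over time and for the other stimuli in both directions; 27 of its 89 comparisons of 2 groups cannot reach the threshold. A pseudocount of 5 gave 1 for the IFNa response over time, 2 for resveratrol, 1 for minocycline and 1 for GABA, and a pseudocount of 0.5 gave 1 for the polyIC response and 0 for LPS_lo with IFNg. Fitting only the groups compared gave 1 for IFNa against IFNb, 0 for the polyIC response, 3 for resveratrol, and 1 each for LPS_lo with IL10 and with IL4. The set of 8 mice with its own Experiment ID gave 3 for aging, of which Oasl1 passed the filter only through the aged mice.

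Alternatives chosen after seeing the data gave, without the untreated cultures of plate 4, 2 for P3C at 24 h, 1 for untreated cultures over time, 1 for the IFNg response, and 4 higher and 2 lower for the other stimuli. Without the high untreated culture at 72 h, P3C at 72 h gave 1. The polyIC response gave 5 without the low 24 h culture and 0 without both low 72 h cultures. Leaving out single samples gave 0 to 4 for LPS_lo with IL4, IL10 and IL13, 4 to 7 for TNFa with IFNg, 8 in each case for IFNb at 72 h, 5 in each case for mice given LPS, and 2 to 3 higher and 16 to 17 lower for the other stimuli. The 5 for mice given LPS include Oasl1, which passed the filter only through the LPS mice. The causes were not tested. No paired analysis was possible because the labels carry no replicate numbers. Depth limits Ifit2, Oas1a and Oas2 in mice, where most values are a few CPM.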

Other observations

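The 5 genes outside the 8 whose condition means were most like the average of the 8 were Phf11d (Pearson r = 0.982), Usp18 (0.980), Slfn8 (0.970), Phf11b (0.966) and Xaf1 (0.965), over 97 conditions and 16927 genes compared. Usp18 removes the ubiquitin-like protein Isg15 and dampens interferon signalling. The conditions share plates and untreated wells, so these values are a description. Phf11d had a median of 49.9 CPM in untreated cultures and 1024 with IFNb at 24 h, and Phf11b of 109 and 2619. Among the 8 themselves, r over the same conditions ran from 0.860 for Ifit1 with Oas1a to 0.978 for Ifit1 with Oasl1.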
